A study of Elaeis oleifera with 12 samples.

Results

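In the fruit abscission zone (AZ) of Elaeis oleifera, 117 of the 29040 loci were well expressed loci of uncharacterized non-coding RNA, most of them long. They were chosen by 2 criteria, namely an annotation as uncharacterized ncRNA, which 1735 loci carry, and a mean of 20 RPKM or more in the group where they were highest. RPKM scales the reads at a locus to the length of its transcript and to the total of aligned reads. The AZ is the layer at the fruit base where ripe fruit detaches, and it was taken from 2 sibling palms of a single progeny. NSd denotes the non-shedding individual and Sd the individual with normal shedding. Each palm was sampled at the pre-ripe (PR) and the ripe stage, with about 3 g of tissue (about 50 AZ pieces) pooled in each sample. The 4 groups, PR NSd (replicates 1 to 3), ripe NSd (4 to 6), PR Sd (7 to 9) and ripe Sd (10 to 12), held 3 libraries each. The 3 libraries of a group came from 1 bunch of 1 palm, so that p-values cover the variation within that bunch, and phenotype cannot be told apart from palm. No treatment was applied.

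Long non-coding RNAs are transcripts that lack a long open reading frame and are not known to be translated. In plants some of them act as decoys for miRNAs, as precursors of small RNAs, as scaffolds for chromatin proteins, or through the act of transcription next to a coding gene. Most are known only as annotated models. In this annotation "uncharacterized" means that a locus was predicted from transcript evidence and was given no name or role. None of the 117 loci carried a description beyond that, so that they are described here by level and pattern alone. In whole tissue, fewer cells of a type and less RNA per cell cannot be told apart.

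The 12 libraries held 19090375 to 34004517 aligned reads, and a read at a transcript of 1000 bases was worth 0.0294 to 0.0524 RPKM. The 3 PR NSd libraries stood apart from the rest. Across all loci their correlation (Pearson's r of log2(RPKM + 1), over loci, which are not independent) with the other groups was 0.937 to 0.964, against 0.966 to 0.988 between the other groups and 0.978 to 0.994 within groups. Reads on rRNA loci made up at least 12.1 to 22.4% of the aligned reads in PR NSd. In Sd they made up 4.68 to 5.49% at PR and 2.70 to 6.85% at ripe, and in ripe NSd 1.21 to 13.4%. The summed RPKM of 36 loci described as photosynthesis proteins was 502 to 551 in PR NSd and 2551 to 4539 in the other 9 libraries, with 1 of the 36 at 0 in every library. Of 58 loci described as polygalacturonase, the enzyme of cell separation that is expected in an AZ, 25 reached 1 RPKM in a library, and their sum was 226 to 704 RPKM in each of the 12 libraries. The sum was higher for 36 loci of kernel or seed proteins (5807 to 10540 RPKM) and 43 of mesocarp oil synthesis (1644 to 4210 RPKM). For 45 loci of lignified tissue it was 434 to 533 RPKM in PR NSd and 687 to 999 RPKM elsewhere. For 7 loci of carotenoid synthesis it was 83.8 to 103 RPKM in PR NSd and 117 to 176 RPKM elsewhere. The part that rRNA or tissue composition plays in the results below was not tested.

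Of the 1735 uncharacterized ncRNA loci, 1550 had a read in at least 1 library and 839 reached 1 RPKM in a library. The limit was the only measured value that chose them. Loci just inside it were LOC109506270 at 20.4 RPKM, LOC105054413 at 20.5 RPKM and LOC105049531 at 20.7 RPKM in their highest group. Loci just outside it were LOC105052216 and LOC114913863, both at 19.9 RPKM, and LOC105038464 at 19.4 RPKM. The limit applies to the highest group, and it therefore favours loci that differ between groups. All 4 group means reached it at 75 loci, 3 group means at 14, 2 at 11 and a single group mean at 17. Counts for the 75 loci are given beside those for all 117, and neither is read as evidence of a tendency to differ.

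The levels spanned more than 3 orders of magnitude. Averaged over the 12 libraries, 4 loci exceeded 1000 RPKM, 30 lay from 100 to 1000 RPKM, 63 from 20 to 100 RPKM and 20 below 20 RPKM, with a median of 39.95 RPKM. A whole number of reads under a single transcript length could be recovered for 101 of the loci, and these lengths ranged from 81 to 5222 bases with a median of 699 bases. Long non-coding RNAs are usually taken to have at least 200 bases, which 99 of the recovered lengths reached, while LOC114914694 with 177 bases and LOC114913968 with 81 bases did not. The other 16 were all loci for which the annotation names transcript variants. The spread of the group means is given here for RPKM as deposited. The range of the 4 group means on the log2(RPKM + 1) scale was under 0.5 at 35 loci, under 1 at 74 loci and at least 2 at 12 loci. Its median was 0.72, against 0.64 at the 6795 mRNA loci above the same limit. The median coefficient of variation between libraries of a group was 11.1 to 21.6% in the 4 groups for the ncRNA loci and 8.12 to 13.9% for those mRNA loci.

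**Figure D1:**
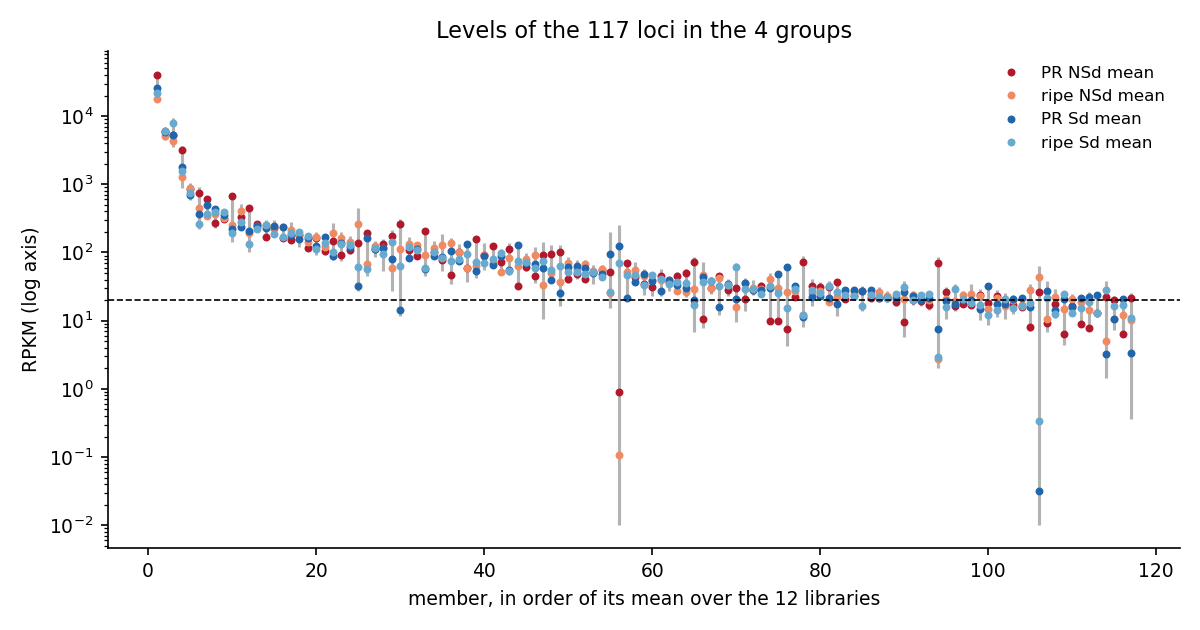
RPKM (log axis) of the 117 loci, ordered by their mean over the 12 libraries. Points are the 4 group means, grey lines run from the lowest to the highest library (values under 0.01 drawn at 0.01), and the dashed line marks the limit of 20 RPKM. The locus with the highest mean lies at 26260 RPKM and 4 loci exceed 1000 RPKM, while 2 loci drop below 1 RPKM in both groups of a palm.

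A single locus, LOC105048074, was the most abundant of all 29040 loci in each of the 12 libraries. Its recovered transcript length was 472 bases, and it collected 167312 to 413499 reads per library, or 0.770 to 1.996% of the aligned reads. It was at 38747, 40194 and 42295 RPKM in PR NSd, 16319, 18379 and 18316 RPKM in ripe NSd, 24080, 24109 and 28357 RPKM in PR Sd, and 22118, 21890 and 20313 RPKM in ripe Sd. All PR NSd libraries were above all others and all ripe NSd libraries below all others. From PR to ripe it fell in NSd by 1.19 ± 0.15 (SE) on the log2 scale (limma, adjusted p = 0.00012). In Sd the log2 change was -0.25 ± 0.15 (adjusted p = 0.38). The change in NSd minus that in Sd was -0.95 ± 0.22 (adjusted p = 0.006), which is under the fold limit. After median-ratio rescaling of the libraries it was -1.29 ± 0.28 and past that limit (adjusted p = 0.0058). The log2 difference of 0.67 ± 0.15 between PR NSd and PR Sd was under the fold limit of the call (adjusted p = 0.0036), but after median-ratio rescaling of the libraries it was 1.07 and past it (adjusted p = 0.0015). Within PR NSd, replicate 1 had the lowest value of the group for this locus. It also had the highest rRNA share, and reads on rRNA count in the totals by which RPKM is scaled. A link between these was not tested. With no filter on low loci the stage change in NSd had the same size but was not called (adjusted p = 0.115).

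LOC114914837 had the same order of groups at a lower level. It was at 2490, 3684 and 3469 RPKM in PR NSd, 890, 1340 and 1620 RPKM in ripe NSd, 1608, 1780 and 2072 RPKM in PR Sd, and 1275, 1973 and 1444 RPKM in ripe Sd. It fell from PR to ripe in NSd by 1.35 ± 0.24 on the log2 scale (adjusted p = 0.00096), and PR and ripe libraries of Sd overlapped. The change in NSd minus that in Sd was -1.11 ± 0.34 and was not called (adjusted p = 0.025). After median-ratio rescaling it was -1.45 ± 0.35 and passed (adjusted p = 0.0096). LOC105048074 was 10.9 to 18.3 times as abundant as LOC114914837 in the 12 libraries, so that they did not keep a fixed ratio. Whether these or other members share reads with a near-identical copy elsewhere in the transcriptome was not tested.

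The other loci above 1000 RPKM were not called in any comparison. LOC105040880 was nearly level, at 5551, 6231 and 6614 RPKM in PR NSd, 5349, 5691 and 4500 RPKM in ripe NSd, 5041, 5894 and 6375 RPKM in PR Sd, and 5588, 6376 and 6364 RPKM in ripe Sd. The 4 groups overlapped throughout in RPKM as deposited. After median-ratio rescaling its log2 change from PR to ripe in NSd was -0.61 ± 0.14 (adjusted p = 0.006). This was under the fold limit, but the level pattern depends on the scaling. LOC105045469 was at 5081, 4731 and 5951 RPKM in PR NSd, 5296, 4061 and 3570 RPKM in ripe NSd, 5090, 5397 and 5287 RPKM in PR Sd, and 6338, 8181 and 9451 RPKM in ripe Sd. The ripe Sd libraries were above the other 9, but the differences from PR Sd (log2 0.58 ± 0.19, adjusted p = 0.084) and from ripe NSd (log2 -0.89 ± 0.19, ripe NSd over ripe Sd, adjusted p = 0.012) did not pass. The stage change of LOC105045469 differed between the palms after median-ratio rescaling (interaction -1.23 ± 0.24, adjusted p = 0.0033) and after removal of rRNA loci from the totals (-1.01 ± 0.24, adjusted p = 0.008), against -0.88 ± 0.26 on RPKM as deposited (adjusted p = 0.023).

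The remaining loci among the 10 with the highest means lay between 332 and 790 RPKM. LOC105032525 was at 583, 720 and 707 RPKM in PR NSd and at 141 to 305 RPKM in the other 9 libraries. It was higher in PR NSd than in PR Sd by 1.63 ± 0.26 on the log2 scale (adjusted p = 0.00035) and fell in NSd by 1.47 ± 0.26 (adjusted p = 0.00082). Its change in NSd minus that in Sd was -1.26 ± 0.36 and was not called (adjusted p = 0.019). LOC105053284 ranged from 486 to 913 RPKM in PR NSd and from 224 to 524 RPKM elsewhere, and LOC105046426 from 599 to 636 RPKM in PR NSd and from 304 to 553 RPKM elsewhere. At both loci an adjusted p under 0.01 came with a log2 change under 1 (LOC105053284, 0.95 ± 0.22 between the PR groups, adjusted p = 0.0039, and LOC105046426, -0.86 ± 0.13 from PR to ripe in NSd, adjusted p = 0.00034). After median-ratio rescaling both were past the fold limit, at 1.36 ± 0.27 for LOC105053284 (adjusted p = 0.0024) and -1.22 ± 0.16 for LOC105046426 (adjusted p = 0.0002). LOC105055937 was lower in PR NSd (226 to 327 RPKM) than in PR Sd (407 to 456 RPKM), again under the fold limit (-0.69 ± 0.16, adjusted p = 0.0042), and its difference was -0.28 ± 0.14 after that rescaling (adjusted p = 0.126). LOC105032036 and LOC105038574 ranged from 595 to 1050 RPKM and from 277 to 435 RPKM over the 12 libraries and passed in no comparison. After that rescaling LOC105032036 was higher in PR NSd than in PR Sd by 0.68 ± 0.15 (adjusted p = 0.0042), under the fold limit.

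**Figure D2:**
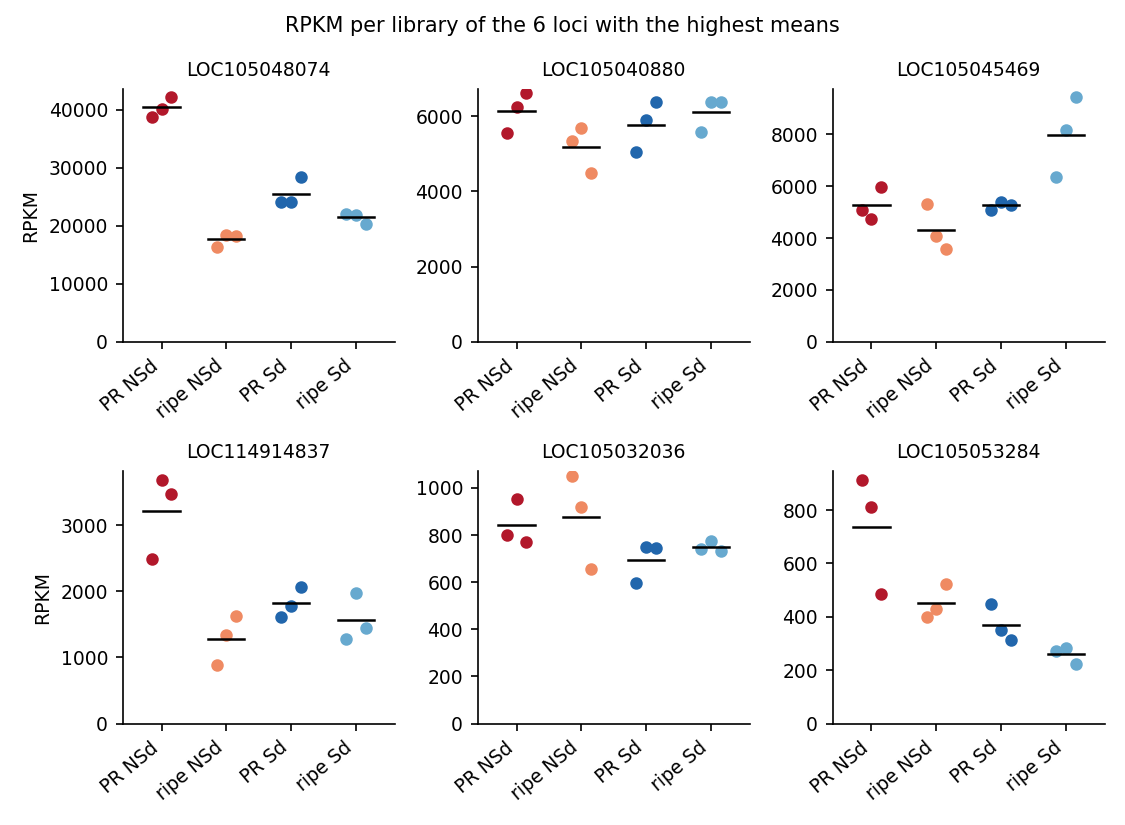
RPKM per library (points, linear axes from 0) and group mean (bars) of the 6 loci with the highest means, 3 libraries per group. LOC105048074 and LOC114914837 are highest in PR NSd and lowest in ripe NSd, LOC105045469 is highest in ripe Sd at 6338 to 9451 RPKM, and the groups of LOC105040880 overlap.

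Together the 117 loci summed to 65761 ± 3469 RPKM (SD, n = 3) in PR NSd and 38150 ± 1577 RPKM in ripe NSd. In Sd the sums were 47452 ± 4043 RPKM at PR and 45752 ± 1799 RPKM at ripe. These sums were 4.90 to 9.28% of all RPKM of a library, and LOC105048074 alone made up 42.4 to 62.5% of them. Without the 4 loci above 1000 RPKM, the other 113 summed to 10749 ± 739 RPKM in PR NSd and 9706 ± 1155 RPKM in ripe NSd, and to 9089 ± 756 RPKM in PR Sd and 8649 ± 330 RPKM in ripe Sd. The difference of the sums between PR NSd and the other groups therefore lay mostly in those 4 loci.

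At some loci the group means differed little in RPKM as deposited. The 5 with the smallest range of group means, 0.08 to 0.20 on the log2(RPKM + 1) scale, were LOC105043370, LOC105059794, LOC105036874, LOC105057210 and LOC105058054. LOC105043370 ranged from 18.7 to 27.2 RPKM over the 12 libraries, LOC105036874 from 23.6 to 38.8 RPKM, LOC105058054 from 27.5 to 44.3 RPKM, LOC105059794 from 34.2 to 65.1 RPKM and LOC105057210 from 86.6 to 146 RPKM. The groups overlapped in every comparison at 4 of them, and at LOC105058054 in all but PR Sd (38.2 to 43.0 RPKM) against ripe Sd (31.3 to 37.8 RPKM). After median-ratio rescaling the range was 0.42 to 0.49 at these loci, with PR NSd the highest group at each, so that the small range depends on the scaling. As they were chosen for that range, no test is given.

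Between the palms at the ripe stage, the comparison that sets ripe NSd against ripe Sd fruit, 2 loci were higher and 3 lower in NSd, with no overlap of libraries at any of them. Over all 20495 loci tested, 0.815% were called higher and 1.63% lower. Among the 75 loci with all 4 group means at the limit, 1 was higher and 0 lower by limma, with 14 and 9 at an unadjusted p under 0.05. Of all 20495 loci tested, 2102 were higher and 3681 lower at that unadjusted p. The 2 and 3 loci are 1.71% and 2.56% of the 117.

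The widest palm difference was at LOC105054935. It was nearly without aligned reads in NSd, at 0, 1.51 and 1.19 RPKM in PR NSd and 0.263, 0.0599 and 0 RPKM in ripe NSd. Whether reads of the palms map equally well at this locus was not tested. In Sd it was at 55.1, 63.9 and 254 RPKM at PR and 62.7, 97.2 and 47.1 RPKM at ripe. The recovered reads were 34 in the 3 PR NSd libraries and 5 in the 3 ripe NSd libraries, against 5407 in PR Sd and 2759 in ripe Sd. The log2 difference (NSd over Sd) was -5.79 ± 0.51 at PR (adjusted p = 6.9e-06) and -5.93 ± 0.51 at ripe (adjusted p = 8.7e-05), values that understate the ratio because 1 RPKM was added before the logarithm. Replicate 9 stood above the other Sd libraries, and stage made no called difference in either palm.

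LOC105044730 showed the opposite pattern. It was at 18.3, 30.7 and 29.0 RPKM in PR NSd and 62.8, 34.6 and 33.5 RPKM in ripe NSd. In Sd it was listed at 0 in replicates 7, 9 and 11, and at 0.0941, 0.746 and 0.268 RPKM in replicates 8, 10 and 12. The log2 difference was 4.68 ± 0.27 at PR (adjusted p = 3.7e-07) and 5.04 ± 0.27 at ripe (adjusted p = 4.2e-06). Every NSd library was above every Sd library, and the calls at both loci held in every other fit of the model, scaling, filter or set of libraries. LOC105054935 reached 20 RPKM in the Sd groups only and LOC105044730 in the NSd groups only, so that their choice favoured a palm difference. With a mean of 17.5 RPKM over the 12 libraries, LOC105044730 would not be chosen at a mean of at least 20 RPKM.

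LOC105060497 was higher in NSd at both stages, with aligned reads in every Sd library. It was at 137, 164 and 114 RPKM in PR NSd, 448, 184 and 141 RPKM in ripe NSd, 35.6, 33.9 and 27.6 RPKM in PR Sd, and 61.5, 71.0 and 51.9 RPKM in ripe Sd. The log2 difference was 2.06 ± 0.33 at PR (adjusted p = 0.0004) and 1.88 ± 0.33 at ripe (adjusted p = 0.0052). The ripe call was lost without replicate 5, 8, 10, 11 or 12, with no filter and with the compared groups fitted alone (adjusted p = 0.0101 to 0.0279, log2 1.76 to 2.02).

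LOC105034335, which the study lists in its supplement, was highest in ripe Sd. It was at 18.7, 34.6 and 36.9 RPKM in PR NSd, 18.8, 9.50 and 18.6 RPKM in ripe NSd, 14.7, 18.6 and 28.8 RPKM in PR Sd, and 43.4, 68.6 and 69.0 RPKM in ripe Sd. The ripe Sd libraries were above the other 9. It was lower in ripe NSd than in ripe Sd by 1.91 ± 0.33 on the log2 scale (adjusted p = 0.0048), a call lost without replicate 4, 5, 6, 11 or 12 (adjusted p = 0.0108 to 0.0261). Its log2 change from PR to ripe in Sd was 1.52 ± 0.33 and did not pass (adjusted p = 0.02). The study lists genes that its own test on read counts (DESeq) called both for this change and between the ripe palms. For the stage change in Sd the outcome here therefore differs from that of the study.

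LOC105057209, also listed in the supplement of the study, was the only one of the 117 called in each of the 5 tests. It was at 17.9, 29.1 and 19.7 RPKM in PR NSd, 6.42, 6.39 and 2.2 RPKM in ripe NSd, 1.83, 1.43 and 6.63 RPKM in PR Sd, and 16.6, 38.6 and 30.6 RPKM in ripe Sd. PR NSd and ripe Sd were high, ripe NSd and PR Sd low, and the high libraries did not overlap with the low ones. The locus reached 20 RPKM in PR NSd and ripe Sd only, so that its choice favoured this pattern. It rose from PR to ripe in Sd by 2.90 ± 0.46 on the log2 scale (adjusted p = 0.0055) and fell in NSd by 2.02 ± 0.46 (adjusted p = 0.004). Between the palms it was higher in NSd at PR by 2.60 ± 0.46 (adjusted p = 0.00072), and lower in NSd at ripe, at -2.32 ± 0.46 (adjusted p = 0.0087).

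Several of these calls for LOC105057209 were lost in some of the alternatives. The rise in Sd was lost without replicate 7, 8, 11 or 12, with no filter and with the compared groups alone (log2 2.59 to 2.90, adjusted p = 0.0124 to 0.035), and the fall in NSd without replicate 2 or 6 (log2 -1.82 to -1.62, adjusted p = 0.0153 to 0.0183). The ripe palm difference was lost in 14 alternatives, 9 of them with 1 library left out (any of replicates 2 to 8, 11 and 12, including libraries of neither group compared), with the log2 difference at -2.56 to -1.92 (adjusted p = 0.0104 to 0.043).

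**Figure D3:**
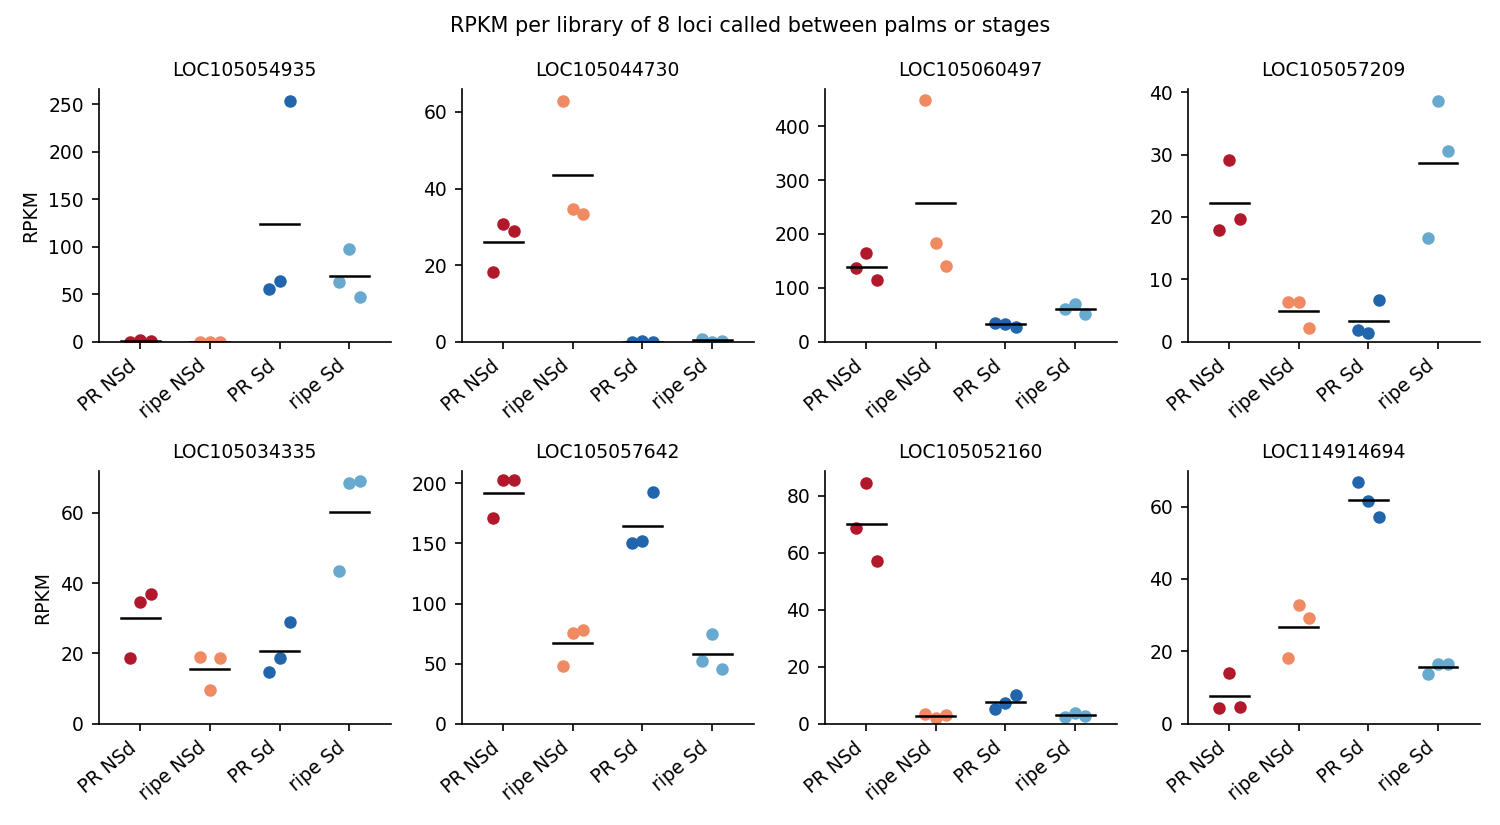
RPKM per library (points, linear axes from 0) and group mean (bars) of 8 loci called between palms or stages, 3 libraries per group. LOC105054935 is at or near 0 in NSd and LOC105044730 at or near 0 in Sd, LOC105057209 is high in PR NSd and ripe Sd, and LOC105057642 is higher at PR than at ripe in both palms.

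In Sd, the palm in which fruit shedding follows ripening, 2 of the 117 loci rose from PR to ripe and 3 fell, with no overlap of libraries. The shares over all loci tested were 0.659% higher and 0.429% lower, and among the 75 loci at the limit in all groups 1 rose and 1 fell. Beside LOC105057209, LOC105045228 rose from 21.2, 21.1 and 22.1 RPKM to 36.7, 59.2 and 42.8 RPKM, a log2 change of 1.04 ± 0.18 (adjusted p = 0.0079). In NSd this locus was at 65.9 to 73.4 RPKM at PR and 39.9 to 63.3 RPKM at ripe. PR NSd was higher than PR Sd by 1.64 ± 0.18 on the log2 scale (adjusted p = 3.2e-05).

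LOC105057642 fell with ripening in both palms. It was at 171, 203 and 203 RPKM in PR NSd and 47.8, 75.7 and 77.8 RPKM in ripe NSd, and at 150, 152 and 193 RPKM in PR Sd and 52.3, 74.99 and 45.4 RPKM in ripe Sd. The log2 change was -1.53 ± 0.21 in NSd (adjusted p = 0.0002) and -1.52 ± 0.21 in Sd (adjusted p = 0.0031), and the difference between these changes was -0.01 ± 0.30 (adjusted p = 0.99). The PR libraries were above the ripe libraries in each palm, and the palms overlapped at each stage.

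The other loci that fell in Sd were LOC114914694 and LOC105045924. LOC114914694 was at 66.8, 61.7 and 57.1 RPKM in PR Sd and 13.8, 16.4 and 16.4 RPKM in ripe Sd, a log2 change of -1.93 ± 0.34 (adjusted p = 0.0083). LOC105045924 was at 34.5, 29.9 and 31.5 RPKM in PR Sd and 15.8, 11.9 and 8.6 RPKM in ripe Sd, a log2 change of -1.37 ± 0.24 (adjusted p = 0.0087). LOC114914694 reached 20 RPKM in PR Sd and ripe NSd only, and LOC105045924 in PR Sd only, so that their choice favoured a difference from the other groups.

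The calls in Sd lay close to the threshold. Without replicate 7, 8 or 12 none of the 117 loci was called by limma, although 29, 27 and 29 had an unadjusted p under 0.05. The same counts over all loci tested are not given for these fits, so that they are not read as a trait of the 117 loci. Without replicate 11 a single locus was called. LOC105057642 was lost without replicate 7, 8 or 12 and with the compared groups alone (adjusted p = 0.013 to 0.0171), and the calls of LOC105045228, LOC114914694 and LOC105045924 in 11, 11 and 14 of the alternatives, most of them with 1 library left out (adjusted p up to 0.0408, 0.0408 and 0.0421). Where the calls were lost the log2 changes stayed at -1.59 to -1.37 for LOC105057642, 0.86 to 1.08 for LOC105045228, -1.99 to -1.85 for LOC114914694 and -1.44 to -1.16 for LOC105045924.

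In NSd, 9 of the 117 loci rose from PR to ripe and 11 fell, where all loci tested gave 7.77% higher and 3.07% lower. The 9 loci are 7.69% of the 117 and the 11 loci 9.40%, and over the 6986 loci with a group mean at the limit the shares were 8.03% and 5.57%. Among the 75 loci at the limit in all groups 1 rose and 8 fell. The median log2 change was 0.07 over the 117 loci and 0.31 over all loci tested. With RPKM rescaled by the median ratio, which brought the median of all loci from 0.31 to 0.02, the split was 6 higher and 20 lower, and removing rRNA loci from the totals gave 8 higher and 13 lower. Shares over all loci under these scalings are not given, so that the shift is not read as particular to the 117 loci.

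LOC105052160 fell the most. It was at 68.7, 84.7 and 57.0 RPKM in PR NSd and 3.19, 2.03 and 2.96 RPKM in ripe NSd, while PR Sd was at 5.09, 7.07 and 10.2 RPKM and ripe Sd at 2.23, 3.82 and 2.72 RPKM. PR NSd alone was high, holding 84.3% of the summed group means, the largest such share among the 117 loci. The log2 change from PR to ripe in NSd was -4.25 ± 0.24 (adjusted p = 4.5e-07), and PR NSd was higher than PR Sd by 3.10 ± 0.24 (adjusted p = 2.4e-06).

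LOC114913911 was likewise high in PR NSd alone, at 78.5, 87.4 and 53.7 RPKM against 7.94 to 16.8 RPKM in the other 9 libraries. It fell in NSd by 2.5 ± 0.25 on the log2 scale (adjusted p = 2.5e-05) and was higher in PR NSd than in PR Sd by 2.60 ± 0.25 (adjusted p = 1.4e-05). Both loci reached the limit of 20 RPKM through PR NSd only, so that a difference from the other groups was implied by their choice.

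The loci that rose most in NSd were lowest in PR NSd. LOC105057709 was at 10.7, 10.1 and 8.86 RPKM in PR NSd, 38.6, 50.8 and 34.0 RPKM in ripe NSd, 32.9, 22.8 and 34.1 RPKM in PR Sd, and 30.3, 38.1 and 29.7 RPKM in ripe Sd. It rose in NSd by 1.93 ± 0.18 (adjusted p = 1.5e-05). LOC105047076 was at 7.79 to 13.3 RPKM in PR NSd and 31.0 to 73.2 RPKM in the other 9 libraries, and rose in NSd by 1.93 ± 0.29 (adjusted p = 0.00038). LOC114914694 rose in NSd from 4.25, 14.0 and 4.44 RPKM to 18.1, 32.7 and 29.2 RPKM, by 1.84 ± 0.34 (adjusted p = 0.0012), a call lost with the compared groups fitted alone (adjusted p = 0.0153).

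Between the PR stages of the palms, 16 of the 117 loci were higher in NSd and 14 lower, against 3.36% higher and 9.53% lower over all loci tested. The 16 loci are 13.7% of the 117 and the 14 loci 11.97%. Over all 6986 loci with a group mean at the limit, which were taken by the same rule on level, the shares were 5.71% and 9.59%. Among the 75 loci at the limit in all groups, 8 were higher and 3 lower. The median log2 difference was 0.01 over the 117 loci and -0.35 over all loci tested. Rescaling by the median ratio, which brought the median of all loci to -0.02, gave 27 higher and 11 lower, and leaving rRNA loci out of the totals gave 20 higher and 14 lower. Here too, no shares over all loci stand beside the rescaled counts, which show only that the split depends on the scaling.

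LOC105045470 had the widest difference after LOC105044730 among those higher in PR NSd. It was at 208, 272 and 308 RPKM in PR NSd, 186, 121 and 33.9 RPKM in ripe NSd, 16.2, 11.7 and 14.6 RPKM in PR Sd, and 30.0, 93.2 and 69.4 RPKM in ripe Sd. PR NSd was higher than PR Sd by 4.11 ± 0.53 on the log2 scale (adjusted p = 8.7e-05), while the ripe libraries of the palms overlapped. Replicate 6 was low among the ripe NSd libraries and replicate 10 among the ripe Sd libraries.

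Among the loci lower in PR NSd, LOC114914694 differed by -3.06 ± 0.34 from PR Sd (adjusted p = 3.3e-05) and LOC105037770 by -2.14 ± 0.16 (adjusted p = 2.3e-06). LOC105037770 was at 9.46, 10.9 and 9.69 RPKM in PR NSd, 26.0, 38.5 and 24.9 RPKM in ripe NSd, 48.2, 50.0 and 44.3 RPKM in PR Sd, and 30.2, 22.6 and 24.8 RPKM in ripe Sd. PR NSd was lowest and PR Sd highest with no overlap, and the ripe groups overlapped. LOC105049531, just inside the limit, was at 6.22 to 6.51 RPKM in PR NSd and 19.3 to 21.5 RPKM in PR Sd (-1.55 ± 0.13, adjusted p = 5.2e-06). It reached 20 RPKM in PR Sd only, so that its choice favoured this difference.

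**Figure D4:**
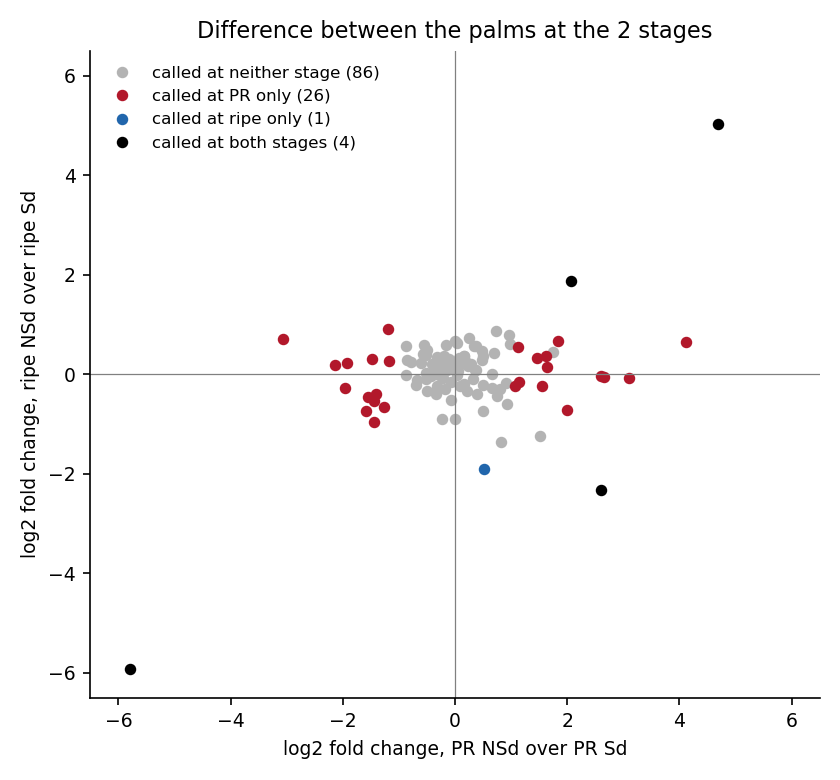
Log2 fold change between the palms for the 117 loci, PR NSd over PR Sd on the horizontal axis and ripe NSd over ripe Sd on the vertical axis, each point a locus. A call was made at PR and not at ripe for 26 loci, at ripe and not at PR for 1 (LOC105034335), at both stages for 4 and at neither for 86. Of the 26, the interaction of stage and palm was called at 16 and not called at 10. The same counts over all loci tested are not given.

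Over the 4 comparisons of groups, 36 of the 117 loci were called at least once and 81 never. Of the 36, 27 were called only in comparisons with PR NSd, the group that stood apart across all loci. Of those called, 8 were higher in PR NSd than in PR Sd and fell in NSd, and 8 were lower in PR NSd than in PR Sd and rose in NSd. These comparisons share the PR NSd libraries. The same counts over all loci tested are not given here, so that those above are not read as a trait of the 117 loci. PR NSd was the highest group at 38 of the 117 loci and the lowest at 45, whereas at the 6795 mRNA loci above the limit it was the highest at 15.7% and the lowest at 61.7%. For the ncRNA loci these shares were 32.5% and 38.5%.

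**Figure D5:**
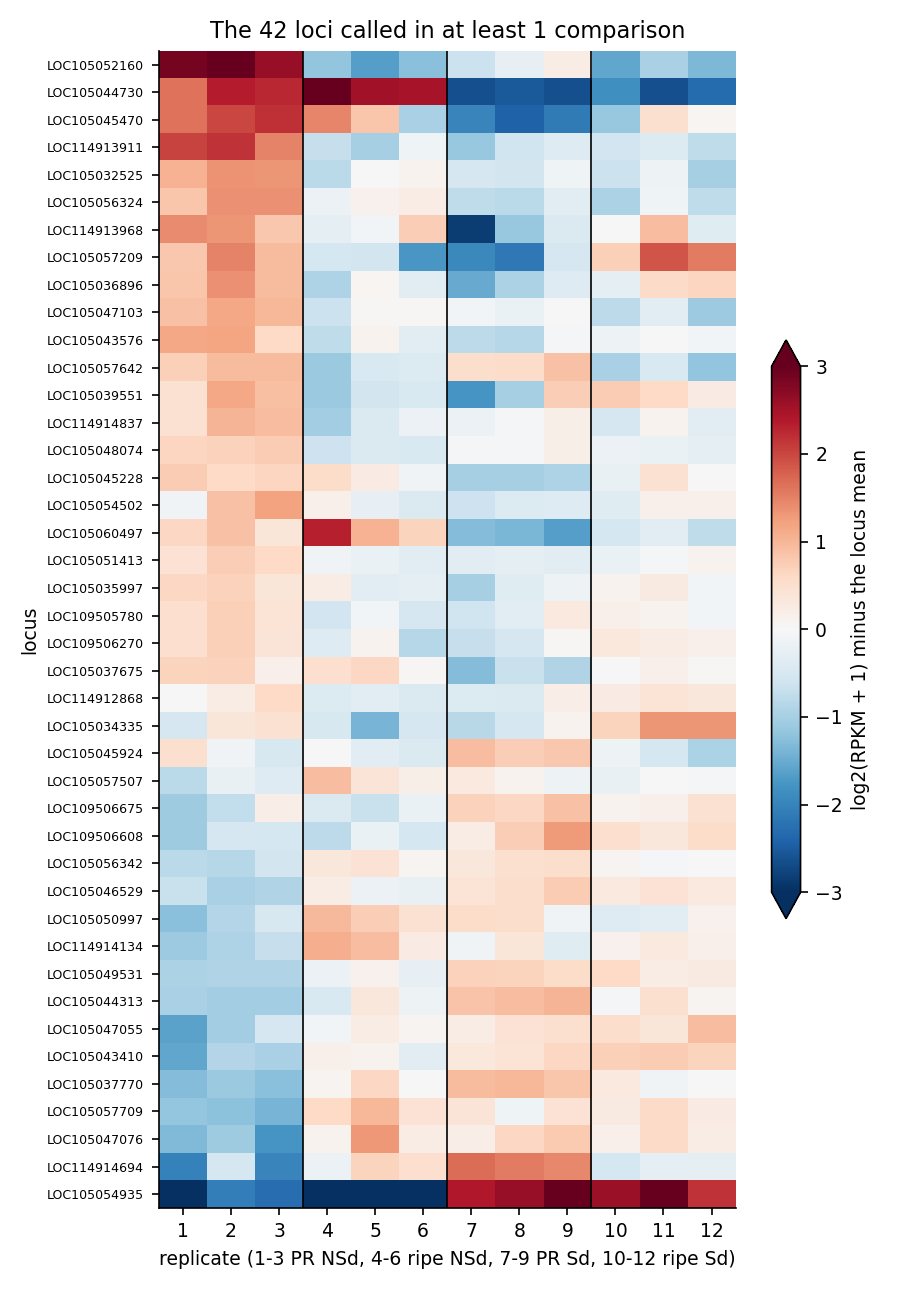
Log2(RPKM + 1) of each library minus the mean of the locus over the 12 libraries, for the 42 loci called in at least 1 of the 5 tests, ordered by their PR NSd mean on this scale (colours end at -3 and 3). The PR NSd libraries (replicates 1 to 3) are at the upper end for most loci at the top and at the lower end for those at the bottom, while LOC105054935 and LOC105044730 split by palm.

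The stage change differed between the palms (the interaction of stage and palm, the change in NSd minus the change in Sd) at 25 of the 117 loci, 11 with a positive and 14 with a negative value. Over all loci tested 9.19% were positive and 4.07% negative, and over the 6986 loci with a group mean at the limit 10.1% and 7.23%. Rescaling by the median ratio gave 8 positive and 21 negative among the 117, against 9 positive and 19 negative after removal of rRNA loci from the totals. Shares over all loci were again not set beside these rescaled counts. The largest positive value, 3.76 ± 0.48 (adjusted p = 0.00023), was that of LOC114914694, which fell in Sd and rose in NSd. The largest negative value, -4.93 ± 0.65 (adjusted p = 0.00028), was that of LOC105057209, which did the opposite. At the 75 loci at the limit in all groups the counts were 3 positive and 6 negative.

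Other lists gave these counts in the same fits, as a description. Of 722 uncharacterized ncRNA loci below the limit that were tested, 21 were higher and 40 lower in PR NSd than in PR Sd (2.91 and 5.54%), with a median log2 difference of -0.26. Of 968 uncharacterized mRNA loci above the limit, 68 were higher and 95 lower (7.02 and 9.81%), with a median of -0.29. Of 5827 other mRNA loci above the limit, 313 were higher and 560 lower (5.37 and 9.61%), with a median of -0.30. Of the 267 tested ncRNA loci with a name 9 were higher and 1 lower, with a median of 0.57, and the 63 rRNA loci tested had a median of 1.57. The median of the 117 loci, 0.01, lay between these.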

How the data were processed

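RNA-seq libraries (12, in 4 groups of 3) were made from AZ tissue. The authors sequenced single reads on an Illumina NovaSeq, used bcl2fastq 2.20.0.422 and FastQC, aligned the reads with BWA-MEM to the E. guineensis transcriptome, counted them with SAMtools, merged the transcripts of a locus and deposited RPKM values, 1 file per library. Reads were therefore mapped across species, and a locus that has diverged between the species would be undercounted. The submitters' processing notes also name DESeq, DESeq2 and HOMER.

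Total reads and transcript lengths were recovered from the steps between RPKM values, with reads taken as whole within 0.001 of a read. The linear model of limma 3.58.1 (R 4.3.3, trended variance) held 1 mean per group on the log2(RPKM + 1) scale. It was fitted to the 20495 loci that had 1 RPKM or more in any library. Calls required a p under 0.01 after Benjamini-Hochberg adjustment over all of these loci, together with a log2 difference greater than 1 in either direction. Fold changes of low loci are understated on this scale. The fit was tested on simulated data.

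The members and lists were chosen with earlier results of these data known. Named were, by rule, the 10 loci with the highest means, the 3 highest and 3 lowest called per comparison with no overlap of libraries, the 3 nearest each side of the limit, the 5 with the smallest range of group means, the 5 with the largest share in 1 group and those the study lists, 33 members in all. LOC114913968 was named outside these rules, for its recovered length alone, and was chosen after its values were seen. Alternatives were no filter, only the compared groups, a pseudocount of 0.1, RPKM rescaled by the median ratio, rRNA loci left out of the totals, no trend, robust moderation, other thresholds, limits of 10 and 40 RPKM, a mean over 12 libraries of at least 20 RPKM, and leaving out each library or PR NSd. Genome positions and sequences were not used here. Python 3.11.15, numpy 2.4.6, pandas 2.3.3 and matplotlib 3.10.9 were used for tables and plots.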

Additional observations from a re-analysis of the deposited data

Results flagged for a closer look

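Among the loci named above, 12 changed with stage differently in the 2 palms by the limma interaction (the log2 change from PR to ripe in NSd minus that in Sd, adjusted p under 0.01). The value was positive at LOC114914694 (3.76), LOC105037770 (2.32), LOC105047076 (2.15), LOC105057709 (1.80) and LOC105049531 (1.09). It was negative at LOC105057209 (-4.93), LOC105045470 (-3.46), LOC105052160 (-3.17), LOC114913911 (-2.63), LOC105034335 (-2.42), LOC109506270 (-1.53) and LOC105045228 (-1.49). At LOC105057709, LOC105047076, LOC105052160 and LOC114913911 the PR NSd libraries alone stood away from the other 9. At LOC114914694 and LOC105057209 the stage change was called in both palms with opposite signs. The former reached the limit of 20 RPKM in PR Sd and ripe NSd only, and the latter in PR NSd and ripe Sd only. LOC109506270 reached it in PR NSd only. The choice of these loci therefore favoured such differences.

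The interaction was not called at LOC105045470 without replicate 2, 8, 11 or 12 (adjusted p = 0.0118 to 0.0137) or at LOC109506270 without replicate 2, 7, 8, 10 or 11 (adjusted p = 0.0109 to 0.0134). At LOC105049531 it was under the fold limit with RPKM rescaled, with rRNA loci out of the totals and without replicate 5 (0.79 to 0.99). The palm and the bunch cannot be told apart from the phenotype in any of these.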

How the results depend on the processing

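Of 47 differences called at named loci, 33 kept their call in every other fit of the model, scaling, filter or set of libraries. The remaining 14 lost it in at least 1, with no change of sign. The test against a fold of 2 asks a stricter question on the fold and was read at an adjusted p under 0.05. It called 18 of the 33 and none of the 14. The counts of loci called were 5 (stage in Sd), 5 (palms at ripe), 20 (stage in NSd), 30 (palms at PR) and 25 (interaction). With no filter the first pair of counts became 1 and 3, with only the compared groups 1 and 3, and with a pseudocount of 0.1 the Sd count was 3. Calling at an adjusted p under 0.05 whatever the fold gave 15, 20, 49, 63 and 46. The test against a fold of 2, also at an adjusted p under 0.05, gave 0 (4 at an unadjusted p under 0.05), 2, 3, 9 and 5. Shares over all loci tested are not given for the alternatives in this section. The counts therefore show only how the calls depend on the processing. A limit of 40 RPKM left 3 loci called in Sd, and a mean over 12 libraries of at least 20 RPKM left 3 in Sd and 3 between the ripe palms. Leaving out single libraries gave 0 to 5, 2 to 6, 18 to 21, 28 to 33 and 17 to 27 loci, with replicates 7, 8 and 12 each taking the Sd count to 0 and replicates 5, 11 and 12 the ripe palm count to 2, and without the 3 PR NSd libraries the Sd and ripe palm counts were 4 and 4. The number of loci was 202 at a limit of 10 RPKM and 74 at 40 RPKM. The sums in PR NSd, ripe NSd, PR Sd and ripe Sd were 25349, 20478, 21937 and 24312 RPKM without the highest locus, and 9908, 8831, 8394 and 7900.5 RPKM without the 5 highest. With rRNA loci out of the totals they were 78081, 41136, 50057 and 47864 RPKM in the same order. No paired analysis was possible because the replicate numbers run from 1 to 12 and the groups share none. Loci with under 1 RPKM in a group rest on few reads, and 3 libraries of 1 bunch per group limit every comparison.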
